A study of Homo sapiens with 2 samples.

Results

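The inflammatory cytokines were 9 genes, chosen by name: IL1A, IL1B, IL1RN and IL18 of the IL-1 family, IL6, IL11 and LIF of the IL-6 family, IL24 of the IL-10 family, and TNF. All 9 had a value, among 23033 genes with a value. RNAseq was performed on 2 libraries of total RNA, 1 from control cells (genotype WT) and 1 from FZR1 ko cells. Both are labelled T-47D, a human luminal breast cancer line, and both were treated with cisplatin at 2 µg/ml, a platinum drug that crosslinks DNA. Untreated cells were not analysed here, and no time of treatment is given for this experiment. The FZR1 ko line was made with CRISPR/Cas9 delivered by lentivirus and is described as a single cell clone, so a property of the clone and the loss of FZR1 cannot be told apart. FZR1 is an activator of the anaphase promoting complex, a ubiquitin ligase. FZR1 itself had 12.3 FPKM in control and 10.1 FPKM in the FZR1 ko library, and since a CRISPR deletion need not lower the mRNA, this level does not check the labels. The luminal breast markers ESR1, PGR, GATA3, KRT19 and CDH1 were under 1 FPKM in both libraries, which goes against the label of a luminal line, whereas XBP1 (93.4 FPKM in control, 72.6 with FZR1 ko), TFF1 (9.80 and 7.52 FPKM) and FOXA1 (5.07 and 4.65 FPKM) of the same list were expressed. The epithelial keratins KRT8 (829 FPKM in control, 998 with FZR1 ko) and KRT18 (552 and 740 FPKM) were abundant, and EPCAM rose from 3.90 to 11.5 FPKM. With 1 library per condition there is no replicate check and no p-value, and each difference describes these 2 libraries.

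Cytokines are secreted proteins that carry signals between cells. IL-1α (IL1A) and IL-1β (IL1B) bind the IL-1 receptor and switch on NF-kB, and the receptor antagonist (IL1RN) blocks the same receptor. IL-18 and IL-1β are made as precursors that caspase-1 cleaves. IL-6, IL-11 and LIF signal through receptors that share the subunit gp130 and activate JAK kinases and STAT3. TNF is made as a membrane protein, is shed by the protease ADAM17, and can drive either NF-kB signaling or cell death. Leukocytes are the best known source of many of these proteins, but epithelial tumor cells also make several of them, and stress and DNA damage are known to induce IL-6, IL-1 and TNF mRNA. Many cytokine mRNAs carry AU-rich elements and are short lived.

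Levels are given as FPKM, counts of fragments divided by transcript length and by library size, so they can be compared between genes. Differences are given as the log2 ratio, for which 1 FPKM was added to both values and FZR1 ko was divided by control. The added 1 FPKM pulls the ratio of a low gene towards 0. Of the 9 cytokines, 7 had at least 1 FPKM in at least 1 library, as did 13554 genes in all. TNF and IL11 were at least 2-fold lower in FZR1 ko, against 6.72% of all genes kept. IL18 was at least 2-fold higher, against 6.78% of all genes kept. In a bulk library, fewer cells that make a cytokine and less of its mRNA per cell cannot be told apart. The other 4 genes kept, IL1A, IL1B, IL6 and LIF, had lower values in FZR1 ko but differed less than 2-fold on this scale. The median log2 ratio of the 7 genes was -0.73, beside -0.0048 for all genes kept, of which 50.3% had the lower value in FZR1 ko. With 5 FPKM added in place of 1 FPKM, the median of the 7 genes was -0.37. IL1A was under 1 FPKM in FZR1 ko and was kept only through the control library. With at least 1 FPKM required in both libraries, which leaves out IL1A, the median of the cytokines was -0.66.

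**Figure D1:**
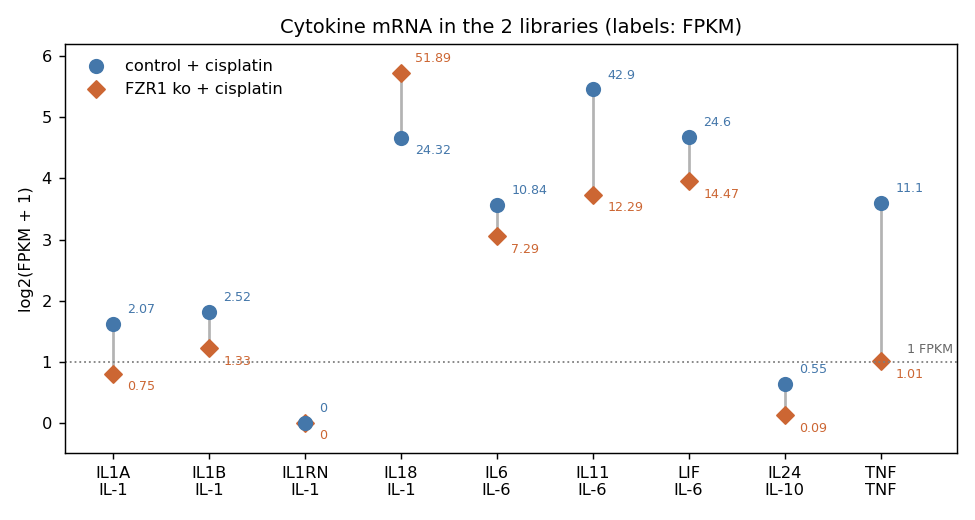
Level of each cytokine as log2(FPKM + 1), with the gene and its family on the x axis, circles for the control library and diamonds for the FZR1 ko library, both with cisplatin, and the FPKM printed beside each point (1 library per condition, no error bars). IL18 is the cytokine with the higher point in FZR1 ko, TNF drops to about the line of 1 FPKM, and both points of IL1RN lie at 0.

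In control, the order of the levels from high to low was IL11, LIF, IL18, TNF, IL6, IL1B, IL1A and IL24, with IL1RN listed at 0. In FZR1 ko it was IL18, LIF, IL11, IL6, IL1B, TNF, IL1A and IL24, again with IL1RN listed at 0. Without replicates, no neighbors in either order can be said to differ beyond their spread. The sum over all 9 genes was 118.9 FPKM in control against 89.12 FPKM in FZR1 ko. In control the IL-6 family made up 78.34 FPKM of this sum, and in FZR1 ko the IL-1 family made up 53.97 FPKM, of which IL18 was 51.9 FPKM.

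TNF (Entrez gene 7124) had 11.1 FPKM in control against 1.01 FPKM in FZR1 ko, for a log2 ratio of -2.59. This was the 29th lowest ratio of the 13554 genes kept. Without the added 1 FPKM, the log2 ratio of TNF was -3.46, and after allowing for the rounding of the deposited values to 2 decimals TNF was at least 10.9-fold lower in FZR1 ko. The file holds no counts, but the lowest values of single-exon genes gave the approximate worth of 1 read. By this estimate, the values of TNF rest on about 300 reads in control and about 29 reads in FZR1 ko. The gene spans bases 31575565 to 31578336 of chromosome 6 (hg38), and its main transcript has 4 exons and 1678 bases. In control its level exceeded that of 54.3% of the genes kept, and in FZR1 ko that of 5.89%.

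IL11 (Entrez gene 3589, chromosome 19, 55364382 to 55370463) had the highest level of the 9 cytokines in control, 42.9 FPKM, and 12.3 FPKM in FZR1 ko. Its log2 ratio was -1.72, the 166th lowest, and without the added 1 FPKM it was 3.49-fold lower in FZR1 ko. About 1700 reads in control and 490 reads in FZR1 ko stand behind these values, more than stand behind TNF. IL-11 acts on epithelial and stromal cells through its receptor and gp130, and is known for its role in bone and in fibrosis. LIF (Entrez gene 3976, chromosome 22, 30240453 to 30246759), a cytokine that holds stem cells in an undifferentiated state, had 24.6 FPKM in control against 14.5 FPKM in FZR1 ko, for a log2 ratio of -0.73. IL6 (Entrez gene 3569, chromosome 7, 22727200 to 22731998), the main inducer of the acute phase response, had 10.8 and 7.29 FPKM, a log2 ratio of -0.51. The 3 cytokines of the IL-6 family were thus all lower in FZR1 ko, and IL11 was the one past 2-fold. A long noncoding RNA gene, IL6-AS1, overlaps IL6 and had 0.26 FPKM in control against 0.60 FPKM in FZR1 ko. The sources used here do not state whether counting used strand, so reads of overlapping genes may not be told apart.

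IL18 (Entrez gene 3606, chromosome 11, 112143260 to 112164094) had 24.3 FPKM in control against 51.9 FPKM in FZR1 ko, for a log2 ratio of 1.06, which ranked 779th from the highest among the 13554 genes kept. It was 2.13-fold higher without the added 1 FPKM, and about 440 reads in control and 980 reads in FZR1 ko stand behind its values. IL-18 is stored as a precursor in many epithelial cells and induces interferon-γ in lymphocytes. The ratio lies just past the 2-fold threshold, and with a pseudocount of 5 FPKM it was 0.96, under the threshold. IL1A (Entrez gene 3552) had 2.07 FPKM in control against 0.75 FPKM in FZR1 ko, for a log2 ratio of -0.81. IL1B (Entrez gene 3553) had 2.52 and 1.33 FPKM, a log2 ratio of -0.60. Both were low in both libraries, at about 68 and 26 reads for IL1A and 62 and 34 reads for IL1B. IL1RN (Entrez gene 3557) was listed at 0 in both libraries. Of the IL-1 family, IL18 was therefore the gene with the higher value in FZR1 ko, and IL1A and IL1B had the lower value.

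IL24 (Entrez gene 11009, chromosome 1, 206897443 to 206904139), a cytokine of the IL-10 family first described for its loss in melanoma cells, had 0.55 FPKM in control against 0.09 FPKM in FZR1 ko. It stayed under 1 FPKM in both libraries and is not among the genes kept. Its values rest on about 18 reads in control and 3 reads in FZR1 ko, and rounding alone allows a ratio of control to FZR1 ko from 5.74 to 6.53. IL24 overlaps FCMR, which had 0.75 and 1.02 FPKM.

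**Figure D2:**
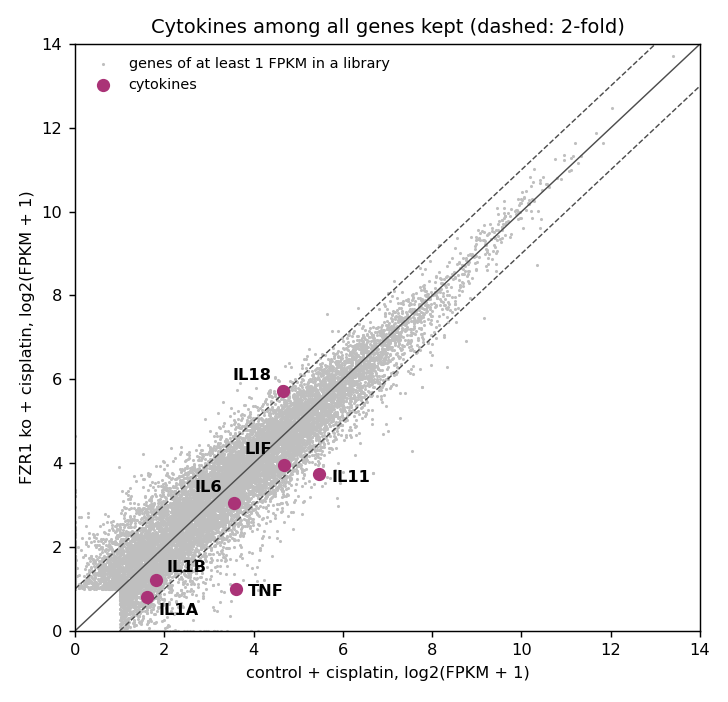
Each grey point is 1 of 13554 genes with at least 1 FPKM in a library, by its log2(FPKM + 1) in control (x axis) and in FZR1 ko (y axis), with the 7 cytokines kept in color, the line of equal values solid and 2-fold lines dashed. TNF and IL11 lie below the lower dashed line, IL18 lies just above the upper one, and IL1A, IL1B, IL6 and LIF lie between the lower dashed line and the solid line.

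The size of the ratio depended on the added constant most for the low genes. With 0.1 FPKM in place of 1 FPKM, IL1A had a log2 ratio of -1.35 and passed 2-fold, and TNF had -3.33. With 5 FPKM, TNF had -1.42 and IL11 -1.47, so both still passed 2-fold. IL11 and LIF, which are higher, moved less than TNF and IL1A. Over all alternatives tried, LIF ranged from -0.77 to -0.60 and IL6 from -0.57 to -0.37, and neither passed 2-fold in any of them.

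**Figure D3:**
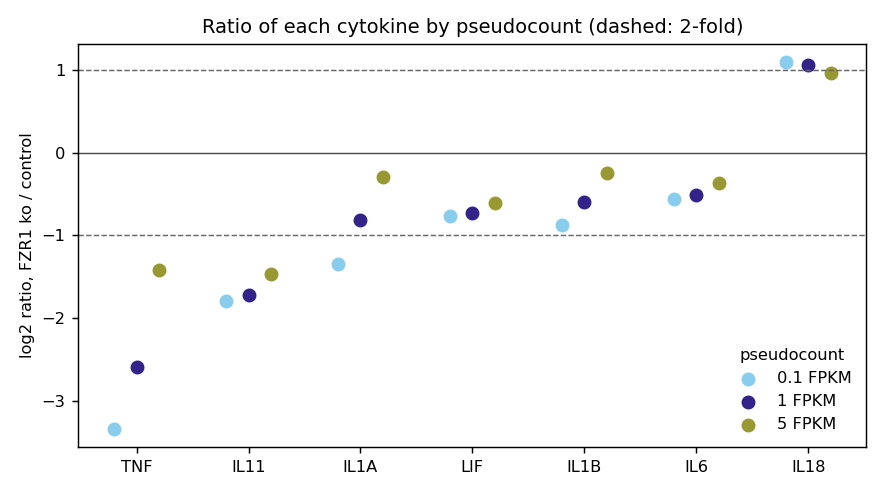
Log2 ratio of FZR1 ko to control (y axis) for the 7 cytokines kept (x axis), with 0.1, 1 or 5 FPKM added to each value and dashed lines at 2-fold. No cytokine changes side of 0, IL1A passes 2-fold only at 0.1 FPKM, and IL18 misses 2-fold at 5 FPKM with 0.96.

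The sequences before the start sites of the 2 cytokines that fell past 2-fold, and of IL6, are shown because NF-kB and AP-1 are known regulators of such genes. The RefSeq promoter table (GRCh38.p14, the build of hg38) held 10 start sites of 7 of the cytokines, and IL18 and LIF had no entry. The 250 bases before each start site were searched on both strands for 5 motifs. These were the NF-kB motif (GGG and CC separated by any 5 bases), the AP-1 motif TGANTCA, the STAT motif TTCNNNGAA, the CRE TGACGTCA and the TATA box TATAAA. Capitals mark every match, 5′ to 3′ on the strand of the gene.
TNF, chr6:31575315-31575564, plus strand: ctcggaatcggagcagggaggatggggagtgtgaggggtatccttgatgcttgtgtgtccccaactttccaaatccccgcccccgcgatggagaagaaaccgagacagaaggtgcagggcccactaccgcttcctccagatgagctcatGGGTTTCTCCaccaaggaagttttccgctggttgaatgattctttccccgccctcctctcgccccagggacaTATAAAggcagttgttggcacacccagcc
IL11, chr19:55370464-55370713, minus strand: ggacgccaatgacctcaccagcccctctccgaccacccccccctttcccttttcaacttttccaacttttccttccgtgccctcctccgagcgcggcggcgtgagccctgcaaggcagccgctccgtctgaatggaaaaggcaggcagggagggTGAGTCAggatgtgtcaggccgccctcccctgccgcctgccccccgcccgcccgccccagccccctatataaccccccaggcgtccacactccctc
IL6, chr7:22726950-22727199, plus strand: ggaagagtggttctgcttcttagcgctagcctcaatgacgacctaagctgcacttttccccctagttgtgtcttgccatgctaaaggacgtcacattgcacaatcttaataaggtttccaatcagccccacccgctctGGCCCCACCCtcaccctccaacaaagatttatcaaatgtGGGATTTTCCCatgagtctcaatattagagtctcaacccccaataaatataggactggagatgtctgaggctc
TNF held an NF-kB match that begins 101 bases before its start site and a TATA box that begins 29 bases before it. IL6 held 3 NF-kB matches, beginning 112, 73 and 72 bases before the start site, of which the last 2 are 1 sequence read on both strands with a shift of 1 base. IL11 held no NF-kB match and 1 AP-1 match, 96 bases before its start site. The NF-kB motif as searched is loose and was found in 54.4% of all 35116 promoters, and in 4 of the 10 cytokine promoters, those of TNF, IL6 and 2 of IL1RN. The AP-1 motif was found in 6.57% of all promoters and in 4 of the 10, that of IL11, both of IL1A and 1 of IL1RN. The IL1A windows overlap and share an AP-1 match, 12 and 105 bases before their start sites. These 4 promoters are therefore not independent, and the count is not read against that share. A STAT match, in 6.57% of all promoters, was found in that of IL1B. The TATA box, in 10.7% of all promoters, was found in those of TNF, 1 of IL1A and 1 of IL1RN. The match of IL1A begins 239 bases before its start site. Only the exact letters TATAAA were searched, so variants of the TATA box are not marked. The CRE, in 1.65% of all promoters, was found in 0 of the 10. A match is a run of letters and does not show that a factor binds there.

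The partners of these cytokines were described next, from lists of ligands, receptors and regulators. Of 20 genes for IL-1 and IL-18 receptors and adaptors, 15 were kept, with a median log2 ratio of -0.10. Of the 15, 2 fell at least 2-fold and 0 rose, against 6.72% lower and 6.78% higher among all genes kept. IL1RL1, the receptor of IL-33, fell from 3.05 FPKM (control) to 0.05 FPKM (FZR1 ko). It was kept only through the control library, so the count is not read against those shares. PELI1, a ubiquitin ligase of IL-1 and Toll-like receptor signaling, fell from 14.2 to 4.43 FPKM. The receptor of IL-1 itself was low, with IL1R1 at 2.14 and 3.56 FPKM and IL1RAP at 1.06 and 1.45 FPKM. IL18R1 was at 0.06 FPKM in control and at 0 in FZR1 ko, and IL18RAP was listed at 0 in both, so the receptor chains of IL-18 were at or near 0 where IL18 itself was among the higher cytokines. The most abundant genes of this list were IRAK1, a kinase of the receptor complex, with 80.1 and 113 FPKM, MYD88, its adaptor, with 22.7 and 13.3 FPKM, and SIGIRR, an inhibitory receptor, with 12.9 and 14.6 FPKM.

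Of 16 genes for the processing and release of IL-1 and IL-18, 10 were kept and 0 passed 2-fold in either direction, with a median log2 ratio of 0.15. CASP1, which encodes the caspase that matures IL-18, had 7.94 FPKM in control against 16.2 FPKM in FZR1 ko, for a log2 ratio of 0.94, the closest of the list to the threshold. PYCARD, the adaptor that couples inflammasome sensors to caspase-1, was listed at 0 in both libraries, and the sensor NLRP3 had 0.23 and 0.17 FPKM. The most abundant genes were CAPN2 with 71.5 and 78.2 FPKM and CAPN1 with 27.5 and 37.9 FPKM, which encode calpains, the proteases that cleave pro-IL-1α, and CASP4 with 67.8 and 52.7 FPKM. Of the other IL-1 family ligands, 0 reached 1 FPKM. IL18BP, which neutralizes secreted IL-18, was the gene of that list that did, with 4.56 and 5.50 FPKM, beside the higher value of IL18 in FZR1 ko.

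The 5 other IL-6 family ligands kept had a median log2 ratio of -0.76. Without the filter on low values, the median was -0.25 for the 7 genes of that list and -0.60 for the 9 cytokines. CLCF1 had 34.2 FPKM in control against 19.9 FPKM in FZR1 ko, a log2 ratio near that of LIF and under 2-fold. EBI3, a subunit of IL-27, was higher in FZR1 ko with 32.0 and 41.7 FPKM. OSM, the ligand closest to LIF in sequence and position, had 0.06 and 0.03 FPKM. Among the receptors of the family and the JAK-STAT3 pathway, 18 of 20 genes were kept, with a median log2 ratio of -0.29. Of the 18, 3 fell and 0 rose, against 6.72% lower and 6.78% higher among all genes kept. SOCS1, a feedback inhibitor of JAK kinases, fell from 17.3 to 3.15 FPKM (log2 ratio -2.14), PIM1, a kinase that promotes survival, from 46.5 to 17.2 FPKM (-1.38), and CISH, another feedback inhibitor, from 10.8 to 3.56 FPKM (-1.37). SOCS3, the main inhibitor of gp130 signaling, had 22.7 and 16.1 FPKM, SOCS2 9.19 and 4.93 FPKM and BCL3 24.0 and 15.5 FPKM, all under 2-fold. The shared receptor subunit gp130 (IL6ST) had 17.5 and 9.88 FPKM, IL6R 7.79 and 5.08 FPKM, LIFR 8.82 and 13.3 FPKM and IL11RA 0.97 and 0.61 FPKM. OSMR with 55.8 and 41.6 FPKM and PTPN11 with 29.5 and 38.6 FPKM were, with PIM1, the most abundant genes.

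All 19 genes for the shedding, the receptors and the adaptors of TNF were kept, with a median log2 ratio of -0.28. Of the 19, 2 fell and 0 rose, against 6.72% lower and 6.78% higher among all genes kept. CYLD, a deubiquitinase that limits NF-kB, fell from 10.8 FPKM (control) to 3.47 FPKM (FZR1 ko), and BIRC2, a ubiquitin ligase of the TNF receptor complex, from 39.7 to 19.1 FPKM. The receptor TNFRSF1A had 34.8 and 40.1 FPKM and the sheddase ADAM17 had 3.73 and 6.66 FPKM, both higher in FZR1 ko. The second receptor, TNFRSF1B, had 3.86 and 2.45 FPKM, and RHBDF1, which encodes a partner of ADAM17, had 12.1 and 6.8 FPKM, both lower in FZR1 ko but under 2-fold. TNFAIP3, which encodes the inhibitor A20, had 38.1 and 22.6 FPKM. RBCK1 (71.8 and 72.4 FPKM), TNIP1 (57.3 and 58.4 FPKM) and SHARPIN (41.6 and 47.6 FPKM) were the most abundant. Among 17 other ligands of the TNF superfamily, 4 were kept and 1 fell, against 6.72% of all genes kept. This was TNFSF9, the ligand of 4-1BB, from 42.4 to 17.7 FPKM. The other most abundant ligands were CD70 with 6.88 and 5.82 FPKM and TNFSF13 with 9.57 and 11.3 FPKM.

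For the IL-10 family, IL10 was the 1 other ligand kept, with 1.97 FPKM in control against 0.88 FPKM in FZR1 ko. Of the receptors, 3 of 7 were kept and 0 passed 2-fold, with a median log2 ratio of -0.32. IL20RB, the chain common to both receptors of IL-24, had 14.6 and 25.7 FPKM. Its partners were low, with IL20RA listed at 0 in control and at 0.10 FPKM in FZR1 ko and IL22RA1 at 0.26 and 0.76 FPKM. IL10RB had 8.85 and 6.90 FPKM and IFNLR1 7.54 and 4.15 FPKM.

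Proteins that bind AU-rich elements set the lifetime of TNF, IL6 and other cytokine mRNAs. All 15 genes of this list were kept, with a median log2 ratio of -0.26. Of the 15, 2 fell and 1 rose, against 6.72% lower and 6.78% higher among all genes kept. ZFP36, which encodes tristetraprolin, a factor that speeds the decay of TNF mRNA, fell from 28.8 FPKM (control) to 7.47 FPKM (FZR1 ko) (log2 ratio -1.82). Its relative ZFP36L1 fell from 65.8 to 24.6 FPKM (-1.38). HNRNPD, which encodes AUF1, rose from 33.0 to 80.4 FPKM (1.26). ZFP36L2 had 120 and 67.6 FPKM, and KHSRP had 88.4 and 87.6 FPKM.

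**Figure D4:**
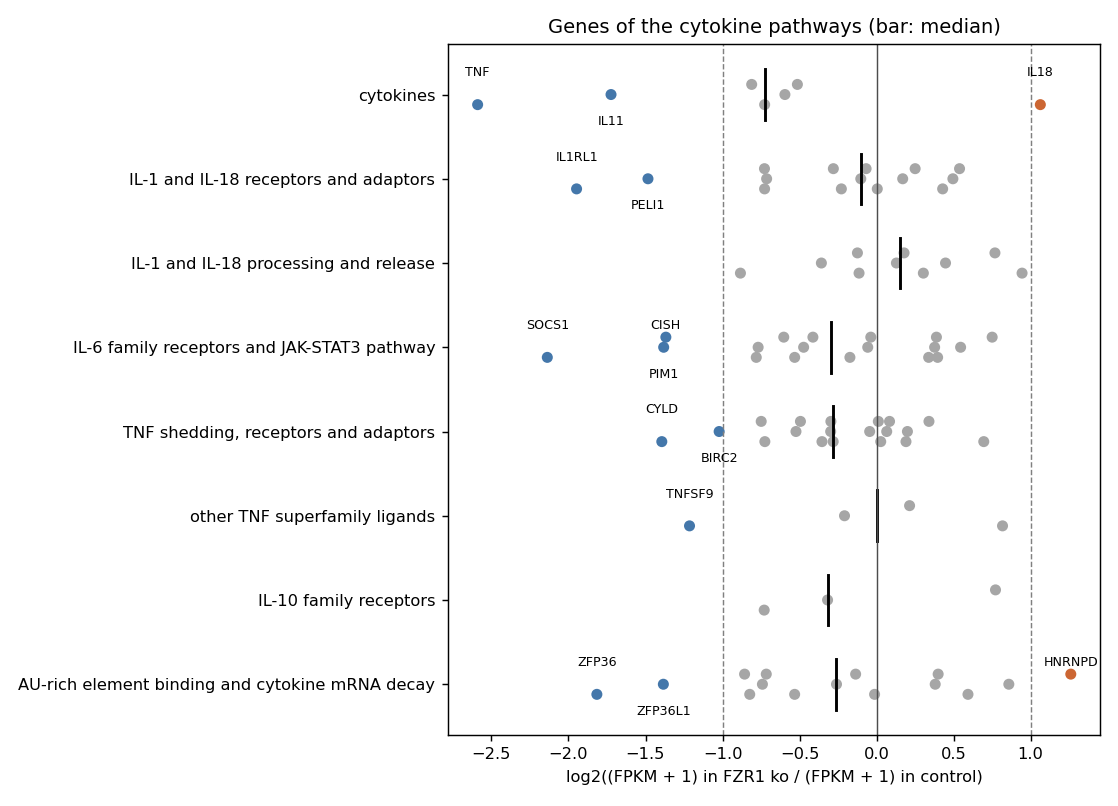
Log2 ratio of FZR1 ko to control (x axis) of each gene with at least 1 FPKM in a library, by list (y axis), with a bar at the median of the list, dashed lines at 2-fold and names for the genes past them. The median of the cytokines lies at -0.73 and those of the other lists shown between -0.32 and 0.15, and not plotted are the other IL-6 family ligands (median -0.76), other IL-10 family ligands (-0.66, 1 gene), other IL-1 family ligands with IL18BP (0.23, 1 gene) and the cell type markers (leukocyte -0.69, 5 genes).

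Several of these genes lie in clusters of related cytokines. IL1A, IL1B and IL1RN lie on chromosome 2 of hg38, IL1A from 112773925 to 112784493, IL1B from 112829751 to 112836779 and IL1RN from 113099360 to 113134014. Between IL1B and IL1RN lie IL37, which was listed at 0 in control and had 0.20 FPKM in FZR1 ko, and 4 IL-36 genes, of which IL36A had 0.07 FPKM in both libraries and the other 3 were listed at 0. Of the other genes within 300 kb of IL1B, POLR1B rose from 10.95 to 27.11 FPKM. In this cluster cytokine transcripts were thus found at IL1A and IL1B, and little or nothing at the genes beyond them. IL24 lies on chromosome 1 with IL10, IL19 and IL20. IL20 was listed at 0 in both libraries, IL19 was listed at 0 in control and at 0.09 FPKM in FZR1 ko, and IL10 had the highest value of the 4 in both. Of the 9 genes kept within 300 kb of IL24, 3 fell, against 6.72% of all genes kept: DYRK3 from 33.2 to 15.4 FPKM, PFKFB2 from 38.3 to 15.4 FPKM and YOD1 from 46.1 to 14.6 FPKM.

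TNF lies between LTA and LTB in the HLA region. LTA had 0.34 FPKM and LTB 0.50 FPKM in control, and both were listed at 0 in FZR1 ko. Of 41 genes kept within 300 kb of TNF, 11 fell at least 2-fold and 1 rose (SNHG32, from 53.0 to 141 FPKM), with a median log2 ratio of -0.46, against 6.72% lower and 6.78% higher among all genes kept. Of the 11, 6 were under 1 FPKM in FZR1 ko and were kept only through the control library, so the count is not read against that share. The genes that fell include short RNAs such as SNORD48 and MIR6832, whose FPKM is uncertain. Of the 28 protein-coding genes among them, 5 fell: MICB, a stress-induced ligand of NK cells, from 62.0 to 28.8 FPKM, NEU1 from 55.1 to 25.6 FPKM, and ATP6V1G2, LY6G6C and MPIG6B, which had at most 2.84 FPKM in control and under 1 FPKM in FZR1 ko. The drop of TNF itself was the largest of the protein-coding genes in this window. IL11 had 27 genes kept within 300 kb, with a median log2 ratio of 0.095. Of the 27, 2 fell, near the share of 6.72% among all genes kept. They were COX6B2, from 8.03 to 3.25 FPKM, and ZNF580, from 27.1 to 11.4 FPKM. Around IL18, 9 genes were kept and 0 passed 2-fold, around LIF 7 with 0, and around IL6 1 with 0.

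**Figure D5:**
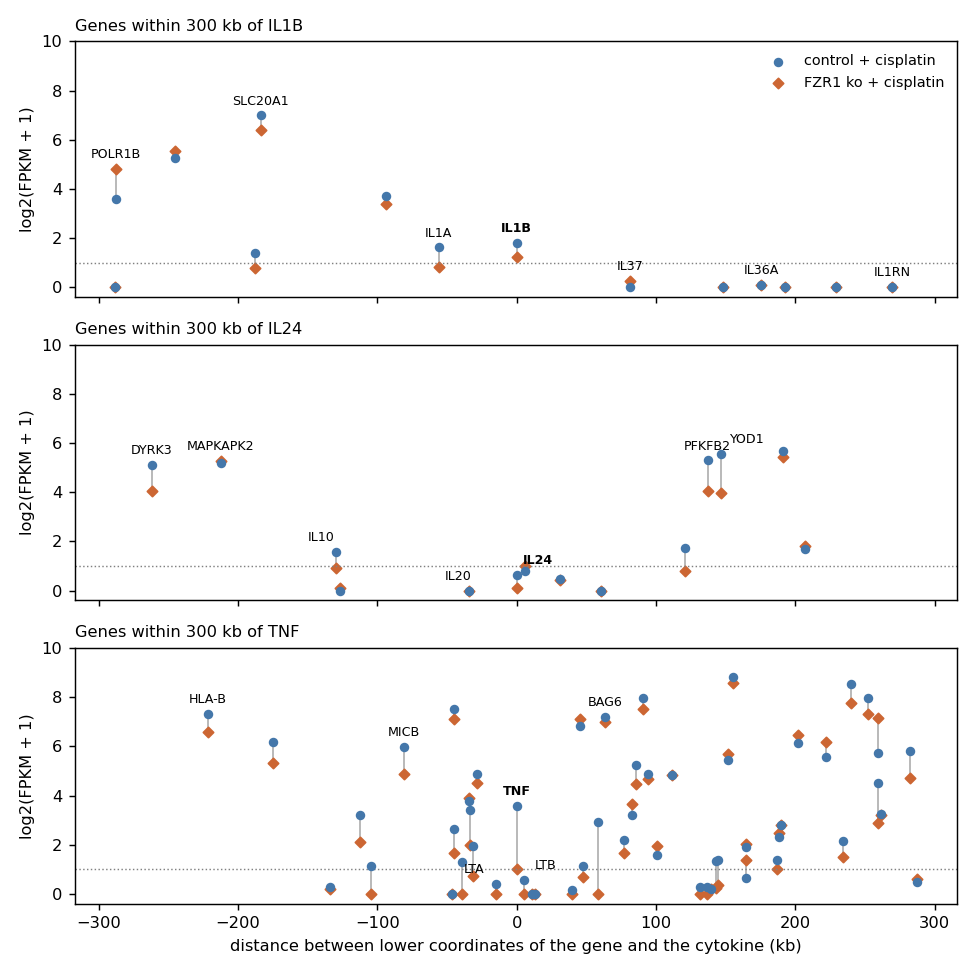
Level as log2(FPKM + 1) (y axis) of each gene within 300 kb of IL1B, IL24 or TNF, by the distance between the lower genomic coordinates of the gene and the cytokine in kb (x axis), with circles for control and diamonds for FZR1 ko. IL37, the IL-36 genes and IL1RN lie at or near 0 in both libraries, and TNF drops further than the other protein-coding genes around it.

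The genes whose values lay nearest to those of the 3 highest cytokines were found by the distance over the log2(FPKM + 1) of the 2 libraries, which for 2 libraries compares only a level and a ratio. They were PCCB, VOPP1 and CDCA7L for IL18, SLX1A, SLX1B and TFPI2 for IL11, and CNNM4, ZBTB1 and TMED5 for LIF. PCCB, for example, had 24.6 FPKM in control against 51.6 FPKM in FZR1 ko. SLX1A and SLX1B are near-identical copies with equal values, so their reads are uncertain.

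Because many of these cytokines are best known from leukocytes, leukocyte markers were examined. Of the 15 with a value, 10 were under 1 FPKM in both libraries, PTPRC (CD45) had 0.08 and 0.09 FPKM, and TYROBP, CD3E, CD2 and MS4A1 were listed at 0 in both. Their sum was 57.2 FPKM in control against 68.2 FPKM in FZR1 ko, of which CD68, a lysosomal protein also found in other cells, made up 46.1 and 63.8 FPKM. FCER1G fell from 1.58 to 0.10 FPKM, CD14 had 1.05 and 0.11 FPKM, and LYZ had 5.97 and 3.34 FPKM. The part of such cells in the lower TNF value was not tested. Of 10 fibroblast markers, with sums of 22.4 and 30.9 FPKM, COL1A2, PDGFRA and POSTN were listed at 0 in both libraries, and the 5 kept had a median log2 ratio of 0.41, with 4 of them higher in FZR1 ko. These 5 were LUM (12.04 and 17.83 FPKM), COL1A1 (5.13 and 6.25 FPKM), FAP (2.05 and 3.06 FPKM), DCN (2.49 and 2.04 FPKM) and PDGFRB (0.44 and 1.58 FPKM). The 6 endothelial markers summed to 4.19 and 0.73 FPKM, and CDH5 fell from 3.64 to 0.33 FPKM, while VWF had at most 0.05 FPKM.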

How the data were processed

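Total RNA was sequenced on the BGISEQ-500 platform, with 1 library per condition. The authors aligned reads to the transcriptome of hg38 with Bowtie2, quantified genes with RSEM and deposited FPKM values rounded to 2 decimals. The submitters' processing notes name Trimmomatic 0.36, HISAT2 2.1.0 and Bowtie2 2.2.5, and the version of the annotation is not given in the sources used here. Of 24663 rows, 23033 had values, and 22925 (99.5%) of these matched a RefSeq symbol of GRCh38.p14 by Entrez gene ID. Other columns of values per sample numbered 0.

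For genes that reached 1 FPKM in either library, 1 FPKM was added to both deposited FPKM values and the log2 of FZR1 ko over control was taken, and a difference of at least 2-fold on this scale was counted. No test was made. The computation was tested on simulated data. The file gives no counts. Reads were estimated after the data were seen: in single-exon genes of at least 600 bases and 0.05 FPKM, the lowest products of FPKM and length, taken as 1 read, centred on 61.5 in control and 59.1 in FZR1 ko. Reads per cytokine are its FPKM times the length of its main transcript in GENCODE 44, divided by this. They are approximate, since effective length was not corrected for.

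The cytokines, lists and motifs were chosen with earlier results of these data known. Named were the cytokines, FZR1, genes of each list past 2-fold, its 3 genes of highest FPKM, neighbors within 300 kb and the 3 protein-coding genes nearest to each of the 3 highest cytokines. Some genes of the lists are not reported here. Other genes named, among them receptor chains of the cytokines, CASP1, PYCARD, NLRP3, OSM, CLCF1, SOCS2, SOCS3, BCL3, ADAM17, RHBDF1, TNFAIP3, LTA, LTB, IL19, IL20, the IL-36 genes and most cell type markers, were named after their values were seen. Alternatives were pseudocounts of 0.1 and 5 FPKM, other filters, centring, rescaling, a 4-fold threshold and protein-coding genes only. Python 3.11.15, numpy 2.4.6, pandas 2.3.3 and matplotlib 3.10.9 were used.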

Additional observations from a re-analysis of the deposited data

How the results depend on the processing

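The 61 log2 ratios of the cytokines under the alternatives all kept their direction, and 57 kept their side of the threshold. TNF and IL11 were the 2 genes at least 2-fold lower under every alternative except a pseudocount of 0.1 FPKM, which added IL1A, and the 4-fold threshold, which left 1, TNF. IL18 was at least 2-fold higher except at 4-fold and with 5 FPKM added, which each left 0. TNF ranged from -3.46 to -1.42, the latter with a pseudocount of 5 FPKM, and IL1A from -1.35 to -0.30. IL1A, under 1 FPKM in FZR1 ko, was not in the setting without a pseudocount, where its ratio would be -1.46. Among all genes, 911 were lower, but 1358 with a pseudocount of 0.1 FPKM, 270 with 5 FPKM added and 89 at 4-fold, and 919 were higher, but 1460 with 0.1 FPKM, 183 with 5 FPKM and 61 at 4-fold, by the construction of these settings. Of 131 medians of the lists, 27 moved, among them leukocyte markers (-0.69, from -1.54 to -0.11), endothelial markers (-1.80, from -3.12 to -0.05) and other IL-6 family ligands (-0.76, but -0.36 with 5 FPKM and -0.25 without the low filter). In all 122 kept their direction, and the other 9, mostly without a filter on low values, were of the lists of TNF superfamily, IL-1 family and IL-10 family ligands, IL-10 family receptors, fibroblast markers and luminal markers. A ratio without a pseudocount, among genes that reached 1 FPKM in both, was chosen after seeing the data. No paired analysis was possible because a condition is 1 library without replicates, so leaving out a replicate could not be run either. The file gives no depth, and by the read estimates the FZR1 ko values of IL24, IL1A, TNF and IL1B rest on about 3, 26, 29 and 34 reads.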
